A study of Mus musculus with 4 samples.

Results

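Small Cajal body RNAs, named Scarna, are noncoding RNAs that guide the modification of the spliceosomal small nuclear RNAs. The table held 33793 transcript clusters, of which 9 carried a symbol that starts with Scarna, for 8 different symbols. In such a cluster the array combines the probes laid out along a single locus into a single signal. The members were selected by their symbol alone, but the group was picked for description with its genotype differences on these arrays known, so its differences are given as a description and nothing is supported by them. Total RNA of dissected whole brain was hybridised to Affymetrix whole-transcript mouse arrays, with 2 arrays from wild type and 2 from Adar2-/- mice. All 4 samples came from adult female mice of the 129SV strain, 5.5 months old per the study's methods. Both genotypes also carried the pre-edited Gria2 allele R/R, and they were siblings from crosses of Adar2 heterozygotes. The Adar2 deletion was not limited to a cell type. Because whole brain was used, fewer cells of a type and less RNA per cell cannot be told apart. Replicates of a genotype are separate samples by their labels. The limma SE and p-value of a cluster rest on the spread between these samples, moderated with the spread seen over all clusters.

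A guide RNA of this family pairs with a small nuclear RNA and brings a modifying protein complex to a chosen base. Guides with C and D boxes bind fibrillarin and direct 2′-O-methylation, whereas guides with H and ACA boxes bind dyskerin and direct pseudouridylation, and some guides are composites of both. Most small nuclear RNAs receive these marks in Cajal bodies, nuclear bodies built on the protein coilin, and the guides are kept there through a short Cajal body motif bound by WRAP53. Most vertebrate guides lie in introns of longer genes and are cut from the spliced intron. ADAR2, the product of Adarb1, edits adenosines to inosines where RNA is double-stranded.

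In 3 members a microRNA hairpin of RefSeq (GRCm38.p6) lies at the 3′ end of the guide. All 3 are H/ACA guides, whose final hairpin is followed by the ACA box. The hairpins are shown for that box and for the likeness of the Scarna3b and Scarna3a loci. Capitals mark ACA within the last 6 bases, and the letters UGAG, one form of the Cajal body motif.
Mir3069 in Scarna13, chr12:105031077-105031141, minus strand: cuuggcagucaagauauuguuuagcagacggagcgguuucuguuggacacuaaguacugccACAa
Mir1843a in Scarna3b, chr12:80391613-80391677, minus strand: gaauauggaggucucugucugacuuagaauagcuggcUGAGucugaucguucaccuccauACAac
Mir1843b in Scarna3a, chr1:159340358-159340423, plus strand: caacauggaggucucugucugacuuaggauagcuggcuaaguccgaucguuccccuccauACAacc
The 3 hairpins end within 2 bases of the 3′ end that RefSeq gives the guide. ACA was followed by 1 to 3 bases in each, and 10.8% of the 1005 mouse hairpins in the RefSeq set hold ACA within their last 6 bases. UGAG, searched on the printed strand only, occurred once in Mir1843a, from base 38, and in 42.5% of all hairpins. Mir1843a and Mir1843b were identical in 59 of 66 alignment columns, or 89.4%. The file marks both Scarna3 clusters as having probes that can cross-hybridize, so their signals may not be independent.

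The mean log2 signal of all 9 Scarna clusters was higher in Adar2-/- than in wild type brain, by 0.17 to 1.25 with a median of 0.42. Over all 33793 clusters the median difference was 0.01, and 50.8% had a higher mean in Adar2-/-. Both Adar2-/- arrays lay above both wild type arrays in 6 of the 9, against 17.7% of all clusters. The arrays of the 2 genotypes overlapped in Scarna10 and in both Scarna17 clusters. At an unadjusted limma p below 0.05, 4 of the 9 were higher (Scarna13, Scarna6, Scarna3a and Scarna8) and 0 lower, where 3.64% of all clusters were higher and 2.31% lower. Without Adar2-/- replicate 1 that count was 2 (Scarna13 and Scarna3a). Without wild type replicate 2 it was 4, but only Scarna13 was among the 4 named above. Scarna8 was not in the count under median centring, quantile or cyclic loess normalization, and Scarna3b and Scarna2 were in it under the last 2. With p-values adjusted over the whole table by Benjamini-Hochberg, 0 of the 9 passed, with a lowest adjusted limma p of 0.834, and 0 of all 33793 clusters did so, although 5.95% had an unadjusted p below 0.05.

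**Figure D1:**
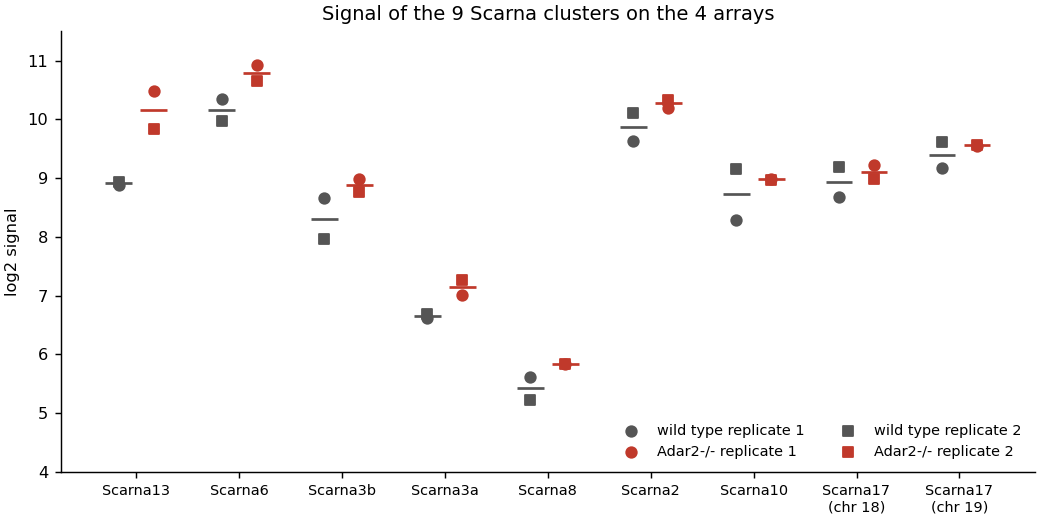
Log2 signal (vertical axis) of each of the 9 Scarna clusters (horizontal axis) on the 2 wild type arrays (grey) and the 2 Adar2-/- arrays (red), with circles for replicate 1, squares for replicate 2 and a line at each genotype's mean. In 6 clusters both red points lie above both grey points, and in Scarna10 and the Scarna17 clusters on chromosomes 18 and 19 the grey points of replicate 2 lie highest or nearly so; heights of different clusters come from different probes and are not comparable.

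The H/ACA guides are Scarna13, Scarna3b, Scarna3a and Scarna8, which direct pseudouridylation. Scarna13 (chromosome 12, 105031075 to 105031349, minus strand) is a guide for U2 and U5 small nuclear RNA. Its log2 signal was 8.89 and 8.93 on the wild type arrays and 10.49 and 9.83 on the Adar2-/- arrays. The lowest Adar2-/- array lay 0.90 above the highest wild type array, and Adar2-/- replicate 1 was the highest of the 4. The means differed by 1.25 (limma SE 0.219, n = 2 per genotype), a 2.38-fold higher linear signal in Adar2-/-. This was the largest difference among the 9 clusters, although the Adar2-/- replicates themselves were 0.66 apart.

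Scarna3b (chromosome 12, 80391613 to 80391751, minus strand) and Scarna3a (chromosome 1, 159340283 to 159340424, plus strand) are the paralogs whose hairpins are printed above. Scarna3b was at 8.66 and 7.96 in wild type and at 8.98 and 8.77 in Adar2-/- brain (log2 signal). Wild type replicate 2 stood low, and the 0.70 between the wild type arrays exceeded the genotype difference of 0.57 (SE 0.237). Scarna3a was at 6.62 and 6.69 in wild type and at 7.01 and 7.27 in Adar2-/- brain. Its genotypes were 0.32 apart at their closest arrays, and the difference of means was 0.49 (SE 0.128), above the replicate differences of 0.07 and 0.26.

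Scarna8 (chromosome 4, 86586453 to 86586583, minus strand) is a guide for U2. Its log2 signal was 5.61 and 5.22 in wild type and 5.83 and 5.84 in Adar2-/- brain. The Adar2-/- arrays were almost equal, wild type replicate 2 was the lowest, and the means differed by 0.42 (SE 0.153), slightly more than the 0.39 between the wild type arrays. The 4 H/ACA clusters together had a median difference of 0.53, and in 4 of 4 both Adar2-/- arrays lay above both wild type arrays, against 17.7% of all clusters; these box classes were assigned with the values known.

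Composite guides carry both box types and can direct both modifications. Scarna6 (chromosome 1, 87784556 to 87784820, plus strand), a guide for U5, was at 10.34 and 9.98 in wild type and at 10.92 and 10.66 in Adar2-/- brain (log2 signal). Both Adar2-/- arrays were above both wild type arrays, by 0.32 at the closest, and the means differed by 0.63 (SE 0.165), a 1.55-fold higher linear signal. Scarna10 (chromosome 6, 125186359 to 125186683, minus strand), also a guide for U5, was at 8.29 and 9.16 in wild type and at 8.98 and 8.97 in Adar2-/- brain. The Adar2-/- arrays lay between the wild type arrays, which were 0.87 apart, the widest gap between replicates among the 9 clusters. The difference of means, 0.25 (SE 0.275), was smaller than that gap.

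The C/D guides direct 2′-O-methylation. Scarna2 (chromosome 3, 108554338 to 108554751, minus strand), a guide for U2, was at 9.63 and 10.10 in wild type and at 10.20 and 10.33 in Adar2-/- brain (log2 signal). The genotypes did not overlap, but they were 0.10 apart at their closest, and the difference of 0.40 (SE 0.175) was below the wild type gap of 0.47.

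Scarna17 was named by clusters at 2 places, both with probes that can cross-hybridize. The cluster on chromosome 18 (74778391 to 74778469, minus strand) holds the RefSeq gene Scarna17, a guide for U4 and U12. It was at 8.67 and 9.19 in wild type and at 9.22 and 8.98 in Adar2-/- brain. The cluster on chromosome 19 (11695267 to 11695342, plus strand) has exactly the span of the RefSeq gene Gm25443, which is annotated as a guide RNA, and was at 9.17 and 9.61 in wild type and at 9.55 and 9.56 in Adar2-/- brain. In both clusters wild type replicate 1 was the lowest array and wild type replicate 2 was above at least 1 Adar2-/- array. Their differences of log2 means were 0.17 (SE 0.196) and 0.17 (SE 0.164), each below the gap between the wild type arrays of 0.52 and 0.44. Without wild type replicate 1 the differences of Scarna10 and of the Scarna17 clusters on chromosomes 18 and 19 turned to -0.19, -0.09 and -0.06, so that 6 of 9 clusters stayed higher in Adar2-/-.

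**Figure D2:**
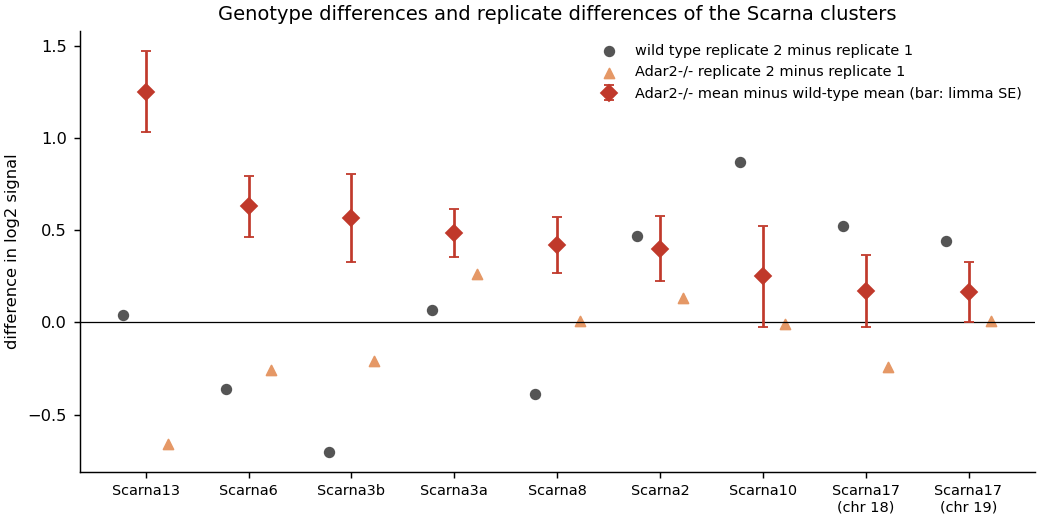
Difference in log2 signal (vertical axis) for each Scarna cluster (horizontal axis), with red diamonds for the Adar2-/- mean minus the wild type mean and their limma SE, grey circles for wild type replicate 2 minus replicate 1 and orange triangles for Adar2-/- replicate 2 minus replicate 1. The genotype difference exceeded both replicate differences in 4 clusters, Scarna13, Scarna6, Scarna3a and Scarna8, and in that direction in 12% of all clusters.

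Array by array, the group was higher on each Adar2-/- array than on wild type replicate 1. Adar2-/- replicate 1 was above wild type replicate 1 in 9 of 9 clusters, with a median log2 difference of 0.55, and above wild type replicate 2 in 7 of 9, with a median of 0.32. Adar2-/- replicate 2 was above wild type replicate 1 in 9 of 9 (median 0.39) and above wild type replicate 2 in 6 of 9 (median 0.58). The wild type arrays differed from each other without a common direction. Replicate 2 was higher in 6 clusters and lower in 3, from -0.70 to 0.87, with a median of 0.07. Over all clusters the same array pairs had median differences between -0.01 and 0.01.

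Of the 9 clusters, 6 lie inside a longer transcript cluster of the same strand on the coordinates of the file. They are Scarna13 in Snhg10, a noncoding host gene of small RNAs, Scarna6 in Atg16l1 (autophagy), Scarna3b in Dcaf5 (a substrate receptor of a ubiquitin ligase), Scarna3a in Rfwd2 (the ubiquitin ligase COP1), Scarna8 in Haus6 (an augmin subunit) and Scarna10 in Ncapd2 (a condensin subunit). No cluster of the table spans Scarna2 or either Scarna17. In 5 of the 6 hosts the arrays of the genotypes overlapped, as they did in 65.9% of all clusters, and the differences of these 5 in log2 signal ran from -0.05 to 0.05, with unadjusted limma p-values of 0.703 to 0.85.

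Snhg10 was at 7.73 and 7.74 in wild type and at 7.91 and 7.66 in Adar2-/- brain, a difference of 0.05 (SE 0.125, limma p 0.703, adjusted p 0.976). The log2 signal of Scarna13 minus that of Snhg10 was 1.16 and 1.19 on the wild type arrays and 2.58 and 2.17 on the Adar2-/- arrays, without overlap. Ncapd2 was the exception among the hosts, at 8.09 and 8.18 in wild type and at 7.90 and 7.84 in Adar2-/- brain. It was lower in Adar2-/- by the unadjusted test but not after adjustment, with a difference of -0.27 (SE 0.106, limma p 0.0475, adjusted p 0.834). That unadjusted call was lost without any 1 of the 4 arrays, while the difference ranged from -0.31 to -0.22. The Scarna group was picked with its genotype differences known, so guides above hosts near 0 were largely set in advance. The difference of the guide was above that of its host in all 6 pairs, by 1.20 for Scarna13, 0.67 for Scarna6, 0.55 for Scarna3b, 0.53 for Scarna3a, 0.45 for Scarna8 and 0.52 for Scarna10. With 1 array left out, a check added after the values were seen, these gaps ranged from 1.0 to 1.41 in Scarna13 and from 0.49 to 0.57 in Scarna3a. The gap of Scarna10 was 0.13 when wild type replicate 1 was omitted. Those of Scarna3b, Scarna6 and Scarna8 were 0.20, 0.39 and 0.30 when wild type replicate 2 was omitted. Probes of a guide cluster do not tell the mature RNA from a longer precursor that holds it.

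**Figure D3:**
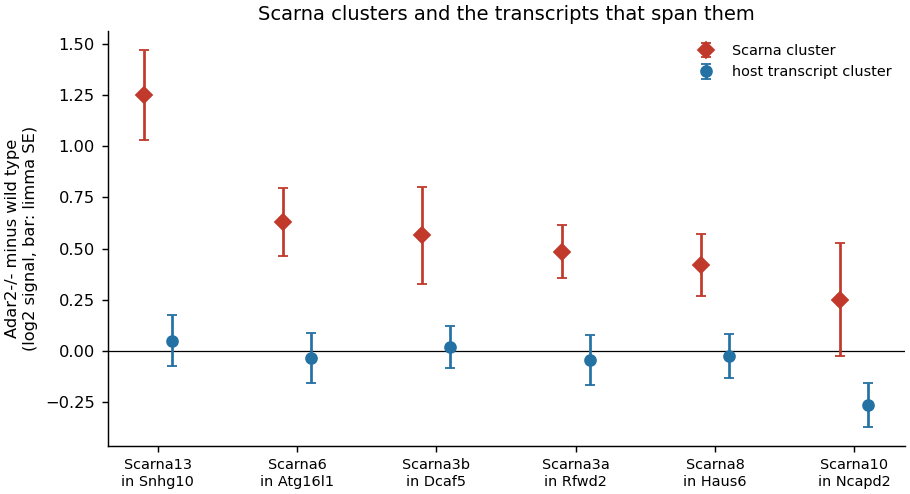
Adar2-/- mean minus wild type mean in log2 signal (vertical axis, bars are the limma SE) for the 6 Scarna clusters that lie in a host (red diamonds) and for the host transcript clusters (blue circles), 1 pair at each place on the horizontal axis. Each red diamond lies above its blue circle, and the blue circles lie near 0 except Ncapd2 at -0.27.

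Unnamed clusters described as small nucleolar RNAs lie within 500 bases of some members. The one 92 bases from Scarna17 on chromosome 18 was at 7.69 and 7.74 in wild type and at 7.62 and 7.93 in Adar2-/- brain (difference 0.06, limma p 0.676). The one 88 bases from the Scarna17 cluster on chromosome 19 was at 5.32 and 5.25 in wild type and at 5.33 and 5.88 in Adar2-/- brain (difference 0.32, limma p 0.148). Scarna9, a further guide of the family, carries no symbol in the table, but an unnamed cluster of 70 bases (chromosome 9, 15326264 to 15326333, minus strand) lies in its RefSeq span. It was at 7.38 and 8.04 in wild type and at 8.03 and 8.01 in Adar2-/- brain (difference 0.31, limma p 0.208), and its probes can cross-hybridize. As in Scarna10, wild type replicate 1 was lowest. A second unnamed cluster, 134 bases from that span and with unique probes, was at 9.75 and 9.82 in wild type and at 9.66 and 9.94 in Adar2-/- brain (difference 0.02, limma p 0.913).

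The small nucleolar RNAs are relatives of these guides that act mainly on ribosomal RNA, with H/ACA guides named Snora and C/D guides named Snord. The median difference in log2 signal was 0.30 over the 36 Snora clusters, of which 32 had a higher mean in Adar2-/- and 18 had both Adar2-/- arrays above both wild type arrays (88.9% and 50%, against 50.8% and 17.7% of all clusters). Over the 95 Snord clusters it was -0.04, with 45 higher and 14 without overlap in that direction, shares of 47.4% and 14.7% that were near those of all clusters. Among the Scarna clusters the median was 0.53 for the 4 H/ACA guides, 0.44 for the 2 composites and 0.17 for the 3 C/D guides. These medians were not tested against each other, and the box classes came from general knowledge.

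**Figure D4:**
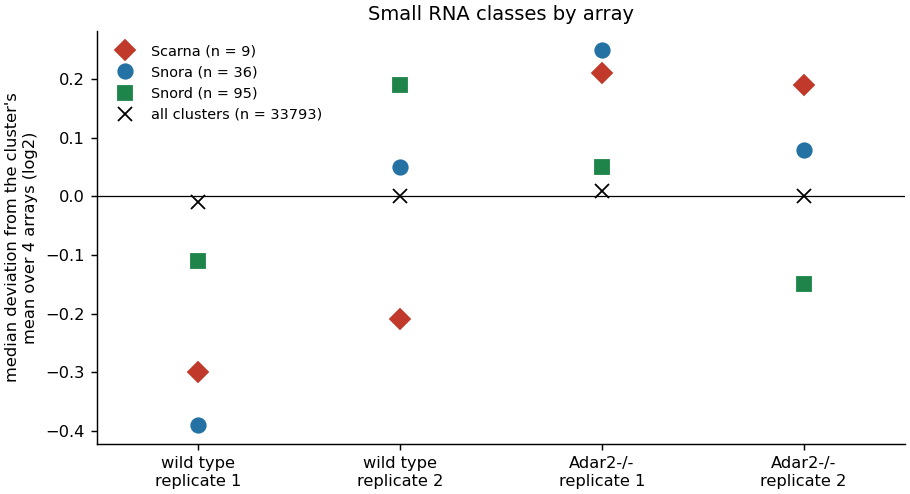
Median deviation of each cluster's log2 signal from its mean over the 4 arrays (vertical axis) on each array (horizontal axis) for the 9 Scarna, 36 Snora and 95 Snord clusters and for all 33793 clusters. The Scarna medians are -0.30 and -0.21 on the wild type arrays and 0.21 and 0.19 on the Adar2-/- arrays, whereas the Snora median is -0.39 on wild type replicate 1 and 0.05 on wild type replicate 2.

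The Snora and Snord medians were below 0 on wild type replicate 1, at -0.39 and -0.11, and above 0 on wild type replicate 2, at 0.05 and 0.19. The Scarna medians were below 0 on both wild type arrays, as were those of the 8 distinct Rnu measurements, at -0.35 and -0.04. Not all of these Rnu measurements are of RNAs that the guides modify. The 3 C/D Scarna clusters had medians of -0.35 on wild type replicate 1 and 0.14 on wild type replicate 2. Those of the 4 H/ACA Scarna clusters were -0.15 and -0.51, lower on replicate 2, and those of the 2 composites were -0.35 and -0.09.

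The proteins that carry and house the guides, with telomerase, were read from lists of 42 measured genes in 48 clusters. At an unadjusted limma p below 0.05, 0 clusters were higher and 5 lower in Adar2-/-, where 3.64% and 2.31% of all clusters were. The median difference in log2 signal was -0.03, against 0.01 over all clusters, and 0 of the 48 passed the test adjusted over the whole table. The 5 lower clusters include a 70-base cluster inside Nop56, which is not the main cluster of that gene. The 5 became 2 without wild type replicate 1 or without either Adar2-/- replicate.

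The proteins of mature H/ACA particles had differences close to 0. Dkc1, the pseudouridine synthase dyskerin, differed by 0.04 (limma p 0.805), Nop10 by 0.00 (p 1), Nhp2 by 0.10 (p 0.597) and Gar1 by -0.02 (p 0.902) in log2 signal. The remaining genes of that list were Nolc1, a Cajal body and nucleolar phosphoprotein, with a difference of -0.09 (p 0.539), Naf1 and Shq1. Naf1, which holds the place of Gar1 during assembly, was at 7.55 and 7.59 in wild type and at 7.15 and 7.21 in Adar2-/- brain, a difference of -0.39 (SE 0.103, limma p 0.00973). Shq1, a chaperone of dyskerin, was at 7.07 and 6.85 in wild type and at 6.57 and 6.63 in Adar2-/- brain, a difference of -0.36 (SE 0.121, limma p 0.0259). In both the genotypes did not overlap.

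Of the C/D proteins, the methyltransferase Fbl differed by -0.12 (limma p 0.433), Nop58 by 0.05 (p 0.707) and the main Nop56 cluster by 0.03 (p 0.813). The Nhp2l1 cluster on chromosome 15, with unique probes, differed by 0.15 (limma p 0.225). A 387-base Nhp2l1 cluster on chromosome 9 differed by 0.17 (limma p 0.187), but its probes can cross-hybridize. A 70-base cluster inside Nop56, far shorter than the gene, was at 4.64 and 4.58 in wild type and at 4.14 and 3.79 in Adar2-/- brain, a difference of -0.65 (SE 0.145, limma p 0.00473). Its Adar2-/- values lie within the 3.49 to 4.40 of clusters for Y-linked genes, which female tissue lacks, so the size of that difference is not a usable fold and 4 of the 5 lower clusters rest on signals above that range. A 133-base cluster inside the same gene differed by 0.17 (limma p 0.553). Ruvbl1, an ATPase of the assembly machinery, was at 8.47 and 8.23 in wild type and at 8.04 and 8.02 in Adar2-/- brain (difference -0.32, SE 0.123, limma p 0.0421).

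Of the Cajal body proteins, the scaffold Coil differed by -0.19 (limma p 0.132) in its longer cluster, on the plus strand. A second cluster with that symbol lies within this span on the minus strand and differed by 0.08 (limma p 0.558). Wrap53, which binds the Cajal body motif, differed by -0.02 (limma p 0.876), and Smn1 by -0.17 (p 0.224). Gemin2, a partner of SMN in building small nuclear ribonucleoproteins, was at 5.65 and 5.56 in wild type and at 5.39 and 5.25 in Adar2-/- brain (difference -0.29, SE 0.112, limma p 0.0452).

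Terc, the telomerase RNA, is itself an H/ACA RNA with a Cajal body motif. It was at 9.62 and 10.53 in wild type and at 9.96 and 10.10 in Adar2-/- brain (log2 signal). The wild type arrays enclosed the Adar2-/- arrays, as in Scarna10, and the difference was -0.05 (SE 0.289, limma p 0.881).

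The small nuclear RNAs that the guides modify were sought among the clusters named Rnu, which also hold other small RNAs. U12 (Rnu12) was at 11.20 and 10.43 in wild type and at 11.41 and 11.63 in Adar2-/- brain, with the genotypes apart and a difference of 0.71 (SE 0.256, limma p 0.0343, adjusted p 0.834), below the 0.77 between the wild type arrays. The 9 U1 clusters, which share all 4 values and count as 1 measurement, were at 6.79 and 7.15 in wild type and at 7.75 and 7.06 in Adar2-/- brain (difference 0.44, limma p 0.134). The U5 cluster Rnu5g lay between 2.10 and 2.70 on all arrays, below the Y-linked clusters, and gives no usable level. U3 (Rnu3a), a small nucleolar RNA despite its symbol, was at 6.34 and 6.41 in wild type and at 6.82 and 7.28 in Adar2-/- brain (difference 0.68, SE 0.17, limma p 0.00787, adjusted p 0.834). The 4 other U3 clusters (Rnu3b1), which share all values, were at 9.98 and 10.46 in wild type and at 10.27 and 10.60 in Adar2-/- brain, with the genotypes overlapping (difference 0.22, limma p 0.322).

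The labels were checked first on the targeted gene. Adarb1 was at 10.50 and 10.45 in wild type and at 9.16 and 8.96 in Adar2-/- brain (difference -1.42, SE 0.118, limma p 2.57e-05, adjusted p 0.409). Markers of neurons, astrocytes and microglia had 0 clusters past an unadjusted p of 0.05, which 5.95% of all clusters passed, and those of oligodendrocytes 1 of 3, Mog, at -0.35. Anterior pituitary markers were higher in Adar2-/- in 3 of 5 clusters by the unadjusted test, against 3.64% of all clusters. The hormone genes Prl, Gh and Pomc differed by 4.12 (limma p 0.000182), 3.17 (p 0.000936) and 0.51 (p 0.0366) in log2 signal, and the list's summed linear signal was 163 to 257 in wild type and 1229 to 2229 in Adar2-/- brain. The second Cga cluster of that list stayed at 2.69 to 3.03, below the Y-linked clusters. The salivary gland markers summed to 61 to 65 in wild type, 573 on Adar2-/- replicate 1 and 71 on Adar2-/- replicate 2, with 0 of 3 past the test. No defining marker of the brain cell types was at the level of the Y-linked clusters. The part of either gland in the Scarna differences was not tested.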

How the data were processed

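Total RNA of whole brain was labelled with the Ambion WT Expression Kit and measured on Affymetrix arrays by a core facility. The deposited values are normalized log2 signals to 2 decimals, and the submitters' processing notes name Affymetrix Expression Console and RMA, with versions not given in the sources used here. The file also holds the authors' ratio, fold change and p-value per cluster, which were not used. Coordinates were taken from the file, where no genome build is named, and all 8 Scarna symbols overlapped their RefSeq spans of GRCm38.p6.

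The genotypes were compared by a two-sided limma fit (version 3.58.1, R 4.3.3, functions lmFit and eBayes) of the deposited log2 signals with no term but genotype, without filter or further normalization. The Benjamini-Hochberg adjustment took in all 33793 clusters. With 2 arrays per genotype, an exact permutation test cannot give a p below 0.333, and the number of arrays limits the precision. The fit was tested on simulated data. The text named every Scarna cluster, Adarb1, the spanning genes, core list genes, Rnu clusters of the guided RNAs, and pathway, marker or Rnu members with an unadjusted p below 0.05. U2 and U4 were not analysed here. Of 46 genes in the pathway lists, Ice1 and Phax were not matched and 2 are synonyms of other listed genes. The members and lists were chosen with earlier results of these data known. Alternatives were 13 changes of scaling, filter, variance model and arrays.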

Additional observations from a re-analysis of the deposited data

How the results depend on the processing

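The median log2 difference of the Scarna clusters lay between 0.36 and 0.46 under all 13 alternatives, and 0 clusters passed the adjusted limma test under any of them, against 4 at an unadjusted p below 0.05. The unadjusted count ranged from 2 to 4 when an array was left out, with 2 without Adar2-/- replicate 1, and was 6 with an intensity trend in eBayes. Scarna13 was the only cluster in that count under all 13 alternatives. With an array left out, the difference of Scarna10 ranged from -0.19 to 0.69, of Scarna17 on chromosome 18 from -0.09 to 0.43 and of Scarna17 on chromosome 19 from -0.06 to 0.39. In the other 6 clusters it stayed above 0, from 0.92 to 1.58 in Scarna13, 0.45 to 0.81 in Scarna6, 0.22 to 0.92 in Scarna3b, 0.36 to 0.62 in Scarna3a, 0.23 to 0.62 in Scarna8 and 0.17 to 0.64 in Scarna2. Without clusters that can cross-hybridize, 5 of the remaining 5 Scarna clusters had a higher mean in Adar2-/-, a smaller count because fewer were kept. The hosts past an unadjusted p of 0.05 went from 1 to 0 under quantile normalization, under cyclic loess normalization and with any 1 array left out. The 5 pathway clusters became 3 among clusters above the median signal, and 2 to 5 with an array left out. Hosts close to 0 turned sign: Dcaf5 to -0.02 under median centring, Atg16l1 to 0.01 under quantile and under cyclic loess normalization and Rfwd2 to 0.00 under cyclic loess normalization. With an array left out the hosts ranged from -0.13 to 0.06 in Atg16l1, -0.08 to 0.03 in Haus6, -0.08 to 0.18 in Snhg10, -0.17 to 0.08 in Rfwd2 and -0.31 to -0.22 in Ncapd2. The cause of these shifts was not tested. The main fit did not pair the arrays by number. The deviations of same-numbered arrays had a correlation of 0.0516, which cannot show whether the samples were paired by design. With the replicate number as a block, the unadjusted Scarna count was 4, of which 3 were the same clusters (Scarna3b in place of Scarna8), the host count was 0 and the pathway count 3.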
